A study of Canis lupus familiaris with 7 samples.

Results

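Interferon-induced genes were followed in left ventricular tissue of dogs fed a low salt diet and of control dogs. The set was a list of 49 symbols for 48 genes, since DDX58 and RIGI name the same gene. Every probe set of the array whose single gene symbol was on the list was taken, which gave 81 of the 42924 probe sets and 40 of the 15115 named genes. No probe set here carried the symbols IFIT1, IFIT3, OASL, BST2, SAMD9, SP110, LGALS3BP, DDX58 or RIGI, so those genes were not analysed here.

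The 7 one-colour Affymetrix canine arrays each held total RNA of 1 sample. The low salt group held 4 samples (low salt 1 to 4) of adult male mongrel dogs given food with 0.5% sodium chloride for 2 weeks. The control group held 3 samples (control 1, 3 and 4) of male dogs labelled control, and neither the salt content of their food nor how long they were fed it is stated. The design text speaks of 10 dogs of 25 to 28 kg, and the labels do not say whether each sample was a separate animal, so p-values measure only the spread between these samples.

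Interferons are secreted proteins that cells release after sensing viral or misplaced nucleic acid. They bind receptors on the cell surface, whose JAK kinases activate STAT proteins, and STAT2 joins IRF9 to switch on a broad set of antiviral genes. Most cell types, cardiomyocytes included, can express such genes, so in whole ventricle their signal can come from muscle, vessels, fibroblasts or blood-borne cells, and fewer cells of a type cannot be told apart from less RNA per cell.

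The deposited signals had been scaled to a common trimmed mean, 150 to 150.1 signal units on every array, while the array medians differed by up to 0.93 on the log2(signal + 16) scale. Levels below are therefore quantile-normalized values of log2(signal + 16), and differences are low salt minus control on that scale, where 1 is 2-fold and dim probe sets are understated. The tissue label was checked with 12 cardiomyocyte markers, of which 10 were named on the array. All 43 of their probe sets were bright enough to be tested, and their summed signal was 128700 to 134600 units in low salt samples and 129800 to 141600 units in control samples. RNA condition was read from the 3′ to 5′ signal ratios of 3 pairs of the array's control probe sets. The first GAPDH pair was 14.5 to 22.6 in low salt samples and 22.7 to 40.9 in control samples, with control 1 the highest. The second GAPDH pair was 2.03 to 2.41 in low salt samples and 2.43 to 2.78 in control samples, with control 3 the highest. Neither overlapped, and each had an exact two-sided permutation p of 0.0571, the smallest that 35 arrangements of these samples can give. The actin pair overlapped, at 0.354 to 1.11 in low salt samples and 0.679 to 1.1 in control samples (exact permutation p of 0.4). The part of these ratios in the results below was not tested.

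No interferon-induced gene passed the test between the diets. Of the 81 probe sets, 62 of 36 genes were bright enough to be tested, and 0 of them had an adjusted p under 0.05 by limma with Benjamini-Hochberg adjustment over all 28616 probe sets tested, against 0.346% of all tested probe sets (0.0384% higher and 0.308% lower). At an unadjusted p under 0.05 there were 4, which is 6.45% of the members against 11.0% of all tested probe sets. They were NMI, higher in low salt samples, and EIF2AK2, IFI35 and SP100, lower in low salt samples. Over all tested probe sets 5.27% were higher and 5.78% lower at that p. With array medians set equal in place of quantile normalization, 6 members were at that p (13.7% of all probe sets), 4 higher and 2 lower. All 4 higher ones were probe sets of NMI alone, and the 2 lower ones were of EIF2AK2 and IFI35. The balance of directions thus moved with the scaling by probe sets, but no further gene was added. NMI was higher and EIF2AK2 and IFI35 were lower under both. The threshold of the design text, an unadjusted p of 0.05 with a 2-fold difference, took EIF2AK2 and IFI35, both lower, or 3.23% of the members against 4.4% of all (1.67% higher and 2.73% lower). A pooled-variance t-test on the same values had 2 members at an unadjusted p under 0.05, NMI and IFI44 (10.0% of all probe sets). It had 0 at the 2-fold threshold (3.04% of all) or after adjustment (0.014% of all). The authors' t-test used variance stabilization, which was not repeated here.

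The count of 4 moved with single samples. It was 9 of 63 without control 4 (1 higher, 8 lower), beside 13.0% of all probe sets in the same fit, and 7 of 64 without control 1 (6 higher, 1 lower), beside 7.96%. It was 7 of 62 without control 3 (2 higher, 5 lower), beside 10.9%, and 2 of 61 without low salt 4, beside 8.19%. In each of these, 0 members passed after adjustment.

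The differences of the interferon-induced genes were centred near 0. Their median over 62 probe sets was -0.01, with the middle of the distribution between -0.27 and 0.34 (quartiles) and a full range of -1.37 to 0.81. The corresponding median of all tested probe sets was 0.04, with quartiles of -0.25 and 0.31. Differences above 0 were found for 30 member probe sets and below 0 for 32, or 48.4% above 0 against 53.8% of all. With the brightest probe set standing for each of the 36 genes, the median was -0.09, against 0.05 over all genes.

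The size of difference these samples could show was limited. The median SE of a member's difference was 0.38 (0.35 for all probe sets). For 22 of the 62 probe sets (35.5%, against 44.9% of all) the 95% interval lay inside a 2-fold difference in both directions. An interval that ended below a 2-fold excess in low salt samples was found for 43, and 40 had intervals that ended above a 2-fold deficit.

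**Figure D1:**
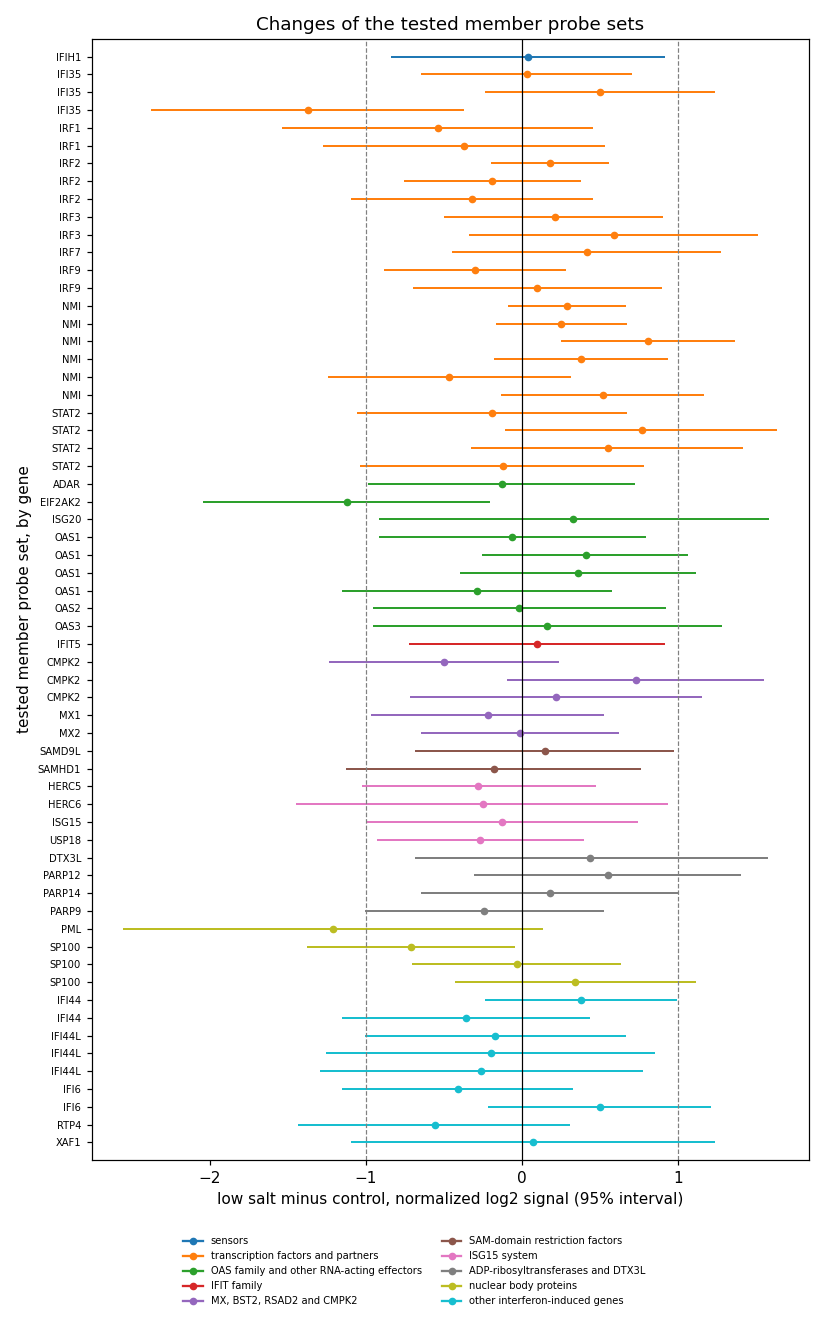
Differences, low salt minus control in log2 units, of the 62 tested probe sets, with 95% intervals as bars and dashed lines at 2-fold in either direction. Points lie on both sides of 0, and most intervals cross it, with IFI35 at -1.37 and NMI at 0.81 at the ends.

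Of the sensors, cytoplasmic proteins that detect viral RNA, only IFIH1 (MDA5) was bright enough to be tested. Its level was 5.32, 6.16, 6.01 and 5.81 in low salt samples and 6.32, 6.22 and 4.82 in control samples. The groups overlapped, with control samples both the highest and the lowest, and the difference was 0.04 ± 0.40 (SE; 95% interval -0.83 to 0.91, limma adjusted p = 0.984). DHX58 (LGP2), a relative of IFIH1 without signalling domains, was too dim to be tested on either of its 2 probe sets, at 0.8726 to 27.57 signal units in low salt samples and 1.493 to 22.05 in control samples.

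Transcription factors and their partners had the most probe sets, 23 tested, with a median of 0.18, 14 above 0 and 9 below. NMI, which binds STAT proteins and is itself induced by interferon, had 6 probe sets. The third brightest of them by mean signal had a level of 8.51, 8.86, 9.52 and 9.35 in low salt samples and 8.06, 8.32 and 8.35 in control samples. All low salt samples were above all control samples. The difference was 0.81 ± 0.26 (SE; 95% interval 0.26 to 1.36), 1.76-fold, with a limma adjusted p of 0.284. As deposited, its signal was 359.3 to 693.8 units in low salt samples and 261.1 to 307.4 units in control samples.

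The other NMI probe sets did not share a single direction. The brightest, at 2167 to 3462 signal units in low salt samples and 1777 to 2539 in control samples, differed by 0.29 ± 0.17. The others differed by 0.25, 0.38, 0.52 and -0.47. Each of these 5 probe sets had overlapping groups.

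IFI35, the partner protein of NMI, had 3 tested probe sets. The dimmest of them was 4.41, 6.54, 5.71 and 4.90 in low salt samples and 6.47, 6.48 and 7.32 in control samples. Low salt 2 lay among the control samples, and the other low salt samples were below all of them. The difference was -1.37 ± 0.46 (SE; 95% interval -2.37 to -0.38), with a limma adjusted p of 0.317. IFI35's other tested probe sets differed by 0.03 and 0.50, with overlapping groups. This IFI35 probe set and the NMI probe set with separate groups had an unadjusted p under 0.05 in each of 16 alternative limma fits. The pooled-variance t-test kept NMI and not IFI35.

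**Figure D2:**
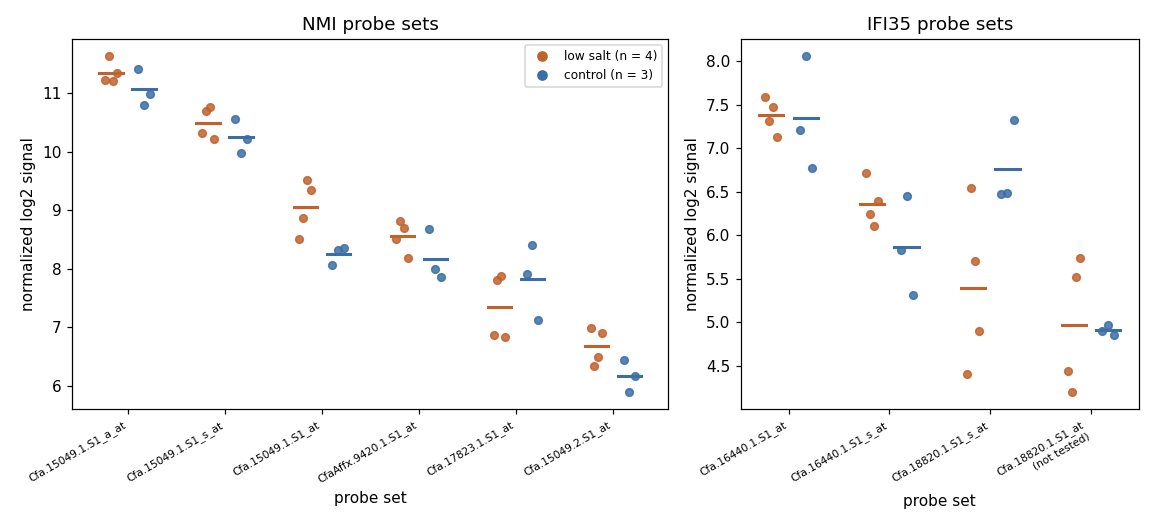
Level (normalized log2) of each NMI and IFI35 probe set in each sample, low salt left and control right, with bars for group means. The groups separate for the NMI probe set at 8.51 to 9.52 against 8.06 to 8.35, and overlap for the others.

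The interferon regulatory factors and STAT2 had overlapping groups on every tested probe set. IRF9, the DNA-binding partner of STAT2, was 8.16, 8.0, 8.47 and 8.38 in low salt samples and 8.89, 8.87 and 7.90 in control samples on its brightest probe set, a difference of -0.30 ± 0.27 (limma adjusted p = 0.716). Controls 1 and 3 were above and control 4 below all low salt samples. The brightest STAT2 probe set was 5.86, 4.54, 6.05 and 5.88 in low salt samples and 5.91, 5.97 and 5.43 in control samples, a difference of -0.19 ± 0.40, and its other tested probe sets ran from -0.12 to 0.77.

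IRF1, a factor that interferon-gamma induces, was on its brightest probe set 4.56, 5.24, 6.76 and 6.21 in low salt samples and 6.45, 6.04 and 6.21 in control samples, a difference of -0.54 ± 0.46 with overlapping groups, and the other tested one differed by -0.37. IRF2, an antagonist of IRF1 at shared sites, was on its brightest probe set 9.90, 10.05, 9.95 and 9.73 in low salt samples and 9.58, 9.66 and 9.95 in control samples. That was a difference of 0.18 ± 0.17 (95% interval -0.19 to 0.55), and its other probe sets differed by -0.19 and -0.32. IRF3 and IRF7, which switch on interferon genes after sensing, differed by 0.21 and 0.59 for IRF3 and by 0.42 for IRF7, with overlapping groups. IRF8 was too dim to be tested.

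Among effectors that act on RNA, EIF2AK2 (PKR), a kinase that double-stranded RNA activates to stop translation, was lower in low salt samples without passing the test. Its level was 6.41, 6.03, 5.94 and 4.53 in low salt samples and 7.28, 6.33 and 6.95 in control samples. Low salt 4 was the lowest of all, and low salt 1 lay inside the control range. The difference was -1.12 ± 0.43 (SE; 95% interval -2.04 to -0.21), with a limma adjusted p of 0.367. Without low salt 4 it was -0.70, and the unadjusted p was no longer under 0.05 without low salt 4 or without control 1.

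The OAS enzymes make the 2-5A messenger that activates an RNA-degrading enzyme. The brightest probe set of OAS1 was 7.0, 7.04, 5.60 and 6.40 in low salt samples and 6.80, 7.01 and 5.90 in control samples, a difference of -0.06 ± 0.40 with overlapping groups. The second brightest OAS1 probe set was 6.43, 6.05, 6.82 and 6.12 in low salt samples and 5.83, 5.96 and 6.05 in control samples, a difference of 0.41 ± 0.31. Low salt 2 was level with the highest control sample there, and the other low salt samples were above it. OAS2 was 7.09, 7.09, 6.46 and 6.61 in low salt samples and 7.77, 7.17 and 5.55 in control samples, a difference of -0.02 ± 0.44. Groups overlapped for OAS2, and control 4 was the lowest sample. OAS1 had a dimmer probe set that was not tested, at 4.40, 4.12, 4.34 and 4.22 in low salt samples and 5.91, 4.56 and 6.34 in control samples. All low salt samples were below all control samples there, while the 4 tested OAS1 probe sets ran from -0.29 to 0.41 with overlap. OAS3, ADAR (an RNA-editing enzyme) and ISG20 (an exonuclease) differed by 0.16, -0.13 and 0.33, all with overlapping groups.

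IFIT proteins bind foreign RNA. IFIT5 was 5.31, 4.97, 5.14 and 5.03 in low salt samples and 5.38, 5.28 and 4.39 in control samples, a difference of 0.10 ± 0.38. IFIT5 lay just inside the filter, with IFIT2 below it.

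The MX proteins are GTPases that trap viral components. MX1, widely used as a marker of interferon response, was 6.56, 6.19, 7.0 and 6.63 in low salt samples and 7.34, 7.04 and 6.06 in control samples. The groups overlapped, and the difference was -0.22 ± 0.34 (SE; 95% interval -0.96 to 0.52, limma adjusted p = 0.855). MX2 differed by -0.01 ± 0.29 (95% interval -0.64 to 0.62). MX1 and MX2 are each read by a single probe set here whose identifier ends in _s_at, a form that can hold probes shared between transcripts. CMPK2, a mitochondrial nucleotide kinase, had all low salt samples lower on its brightest probe set, at 5.45, 5.52, 5.14 and 4.97 in low salt samples and 6.13, 5.62 and 5.55 in control samples, a difference of -0.50 ± 0.34. The second brightest CMPK2 probe set was 5.66, 6.01, 5.75 and 5.46 in low salt samples and 5.73, 4.79 and 4.43 in control samples, a difference of 0.73 ± 0.38 with overlapping groups, and the last tested differed by 0.22. Without control 1 that second difference was 1.08, and without control 4 it was 0.45. RSAD2 (viperin), which makes a chain-terminating nucleotide, was too dim to be tested.

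Of restriction factors of the SAM-domain group, SAMD9L and SAMHD1 were tested. SAMD9L, which shuts down translation, was 7.46, 7.66, 6.83 and 7.21 in low salt samples and 7.98, 7.32 and 6.13 in control samples, a difference of 0.15 ± 0.38. SAMHD1, which breaks down deoxynucleotides, was 4.07, 5.15, 5.53 and 5.87 in low salt samples and 5.06, 5.47 and 5.49 in control samples, a difference of -0.18 ± 0.44. In both, the samples of each diet overlapped.

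The ISG15 system attaches the small protein ISG15 to other proteins. Its 4 tested probe sets all lay below 0, with a median of -0.26, and 0 had an unadjusted p under 0.05. ISG15 was 5.89, 6.17, 6.47 and 4.86 in low salt samples and 6.49, 5.72 and 5.71 in control samples, a difference of -0.13 ± 0.40 (95% interval -0.99 to 0.74, limma adjusted p = 0.939). HERC5, the ISG15 ligase in humans, was 6.36, 6.89, 6.39 and 6.57 in low salt samples and 7.66, 6.55 and 6.27 in control samples, a difference of -0.28 ± 0.35. USP18, which removes ISG15, was 5.60, 6.0, 5.76 and 5.90 in low salt samples and 5.77, 6.23 and 6.25 in control samples, a difference of -0.27 ± 0.30. Control 1 set the high end for ISG15 and HERC5, and HERC6 is described with the control samples below.

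PARP9, PARP12 and PARP14 transfer ADP-ribose, and DTX3L is the ubiquitin ligase that pairs with PARP9. Their 4 tested probe sets had a median of 0.31, 3 above 0 and 1 below. DTX3L was 6.40, 7.5, 5.48 and 7.14 in low salt samples and 7.23, 6.29 and 5.05 in control samples, a difference of 0.44 ± 0.52. PARP12 was 4.91, 5.52, 5.04 and 5.52 in low salt samples and 4.40, 5.31 and 4.38 in control samples, a difference of 0.55 ± 0.40. PARP14 differed by 0.18 ± 0.38 and PARP9 by -0.24 ± 0.35. Groups overlapped for each, and PARP12 lay just inside the filter.

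PML and SP100 build nuclear bodies. PML was 7.76, 6.15, 8.37 and 5.24 in low salt samples and 7.85, 7.33 and 9.10 in control samples, a difference of -1.21 ± 0.62 (SE; 95% interval -2.55 to 0.13), with a limma adjusted p of 0.508. PML's difference ran from -1.75 without low salt 3 to -0.65 without low salt 4, and was -0.74 without control 4. The brightest SP100 probe set was 6.65, 6.98, 7.47 and 6.70 in low salt samples and 7.62, 7.18 and 8.18 in control samples, a difference of -0.71 ± 0.31 (limma adjusted p of 0.422). SP100's difference was -0.47 without control 4, and its unadjusted p stayed under 0.05 in 2 of the 7 fits that left out 1 sample. Low salt 3 lay inside the control range for both genes. Other SP100 probe sets differed by -0.03 and 0.34, and an untested PML probe set was 0.79 higher in low salt samples.

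The remaining members include IFI6, a mitochondrial protein, IFI44 and IFI44L, XAF1, which promotes cell death, and RTP4, a receptor transport protein. The dimmer IFI6 probe set was 6.20, 6.21, 6.10 and 6.32 in low salt samples and 5.97, 6.08 and 5.07 in control samples, a difference of 0.50 ± 0.33 without overlap, while the brighter one differed by -0.41. The brighter IFI44 probe set was 6.66, 6.34, 6.34 and 6.47 in low salt samples and 6.20, 6.19 and 5.84 in control samples, a difference of 0.38 ± 0.28 without overlap, and the dimmer one differed by -0.36. RTP4 was 6.46, 5.54, 5.61 and 5.85 in low salt samples and 7.16, 6.64 and 5.50 in control samples, a difference of -0.56 ± 0.40, which was -1.07 without control 4 and -0.20 without control 1. IFI6's difference was 0.19 without control 4. Over all members, groups without overlap were found for 4 of 62 tested probe sets (NMI, IFI6 and IFI44 higher, CMPK2 lower), or 6.45% against 10.8% of all tested probe sets (5.13% higher and 5.68% lower).

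Probe sets of the same gene often differed in sign. Of the 13 genes with at least 2 tested probe sets, 10 had differences both above and below 0, among them NMI, IFI35, OAS1, SP100, CMPK2, STAT2 and IFI44.

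The plainest pattern in these genes was among the control samples themselves. Control 1 was the highest of the 7 samples for 20 of 62 member probe sets (32.3%, against 17.3% of all tested probe sets), and control 4 was the lowest for 23 (37.1%, against 16.7% of all). These 2 samples were singled out after their values were seen, and no test was made. XAF1 was 5.30, 6.62, 5.35 and 6.03 in low salt samples and 7.04, 5.88 and 4.35 in control samples 1, 3 and 4. HERC6, the ISG15 ligase of mice, was 7.12, 7.34, 5.79 and 7.48 in low salt samples and 8.40, 7.5 and 5.65 in control samples. IFI44L's brightest probe set was 6.77, 7.42, 6.32 and 6.80 in low salt samples and 7.91, 6.87 and 6.21 in control samples. For all 3 genes control 1 was the highest and control 4 the lowest sample, with the low salt samples between. Their differences between diets were 0.07 ± 0.54 for XAF1, -0.25 ± 0.55 for HERC6 and -0.17 ± 0.39 for IFI44L.

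Control 1 exceeded the mean of controls 3 and 4 by 1.92 for XAF1, 1.83 for HERC6, 1.66 for PARP14, 1.56 for DTX3L and 1.41 for OAS2. It was at least 2-fold above them for 13 of 62 member probe sets (21.0%, against 5.49% of all), and the median gap was 0.31, against -0.02 for all. Control 4 lay at least 2-fold below the mean of controls 1 and 3 for 13 of 62 (21.0%, against 7.33% of all), with a median gap of -0.34, against 0.02 for all. The opposite was seen for ISG20, where control 1 was 1.34 below controls 3 and 4 (difference -1.34). An OAS1 probe set was likewise lower in control 1 (difference -1.27). These were the 2 of 62 at least 2-fold lower in control 1 (3.23%, against 7.55% of all). Control 4 was at least 2-fold above the mean of controls 1 and 3 for 3 of 62 (4.84%, against 8.84% of all). By genes, control 1 was highest for 15 of 36 (41.7%, against 14.9% of all genes), and control 4 was lowest for 15 of 36 (41.7%, against 16.6%).

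The counts depended on how arrays were scaled. On the deposited scale, control 1 was highest for 19 members (30.6%, against 20.7% of all), and with medians set equal for 17 (27.4%, against 13.1%). Control 4 was lowest for 11 members as deposited (17.7%, against 11.2%) and for 26 with medians set equal (41.9%, against 30.3%). As deposited, control 4 was more often the highest sample than the lowest, for 14 members (22.6%, against 28.3% of all). Control 1 also stood highest for 23 of 43 cardiomyocyte marker probe sets and for 6 of 13 of T and NK cell markers, beside 17.3% of all. Most of those 23 were TTN probe sets. On the brightest probe set of each other cardiomyocyte marker, control 1 was highest for TNNT2 and level with control 3 for MYL2. It was not highest for ACTC1, MYBPC3, MYH7, MYL3, PLN, RYR2 or TNNI3. Control 1 had the highest ratio of the first GAPDH pair, but not of the second. Control 4 also stood lowest for 9 of 20 macrophage and monocyte marker probe sets, 6 of 14 fibroblast ones and 5 of 12 pan-leukocyte ones. In the other lists it was lowest for 7 of 43 cardiomyocyte, 2 of 11 smooth muscle and pericyte and 1 of 7 dendritic cell probe sets. It was lowest for 1 of 13 T and NK cell and 1 of 13 endothelial ones. For B and plasma cell (8 tested), neutrophil (4) and erythroid (2) ones it was lowest for 0. Its share over all tested probe sets was 16.7%. Over all tested probe sets, deviations of control 4 from its group mean correlated at 0.434 with those of low salt 3. Whether these had a part in the members' pattern was not tested.

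**Figure D3:**
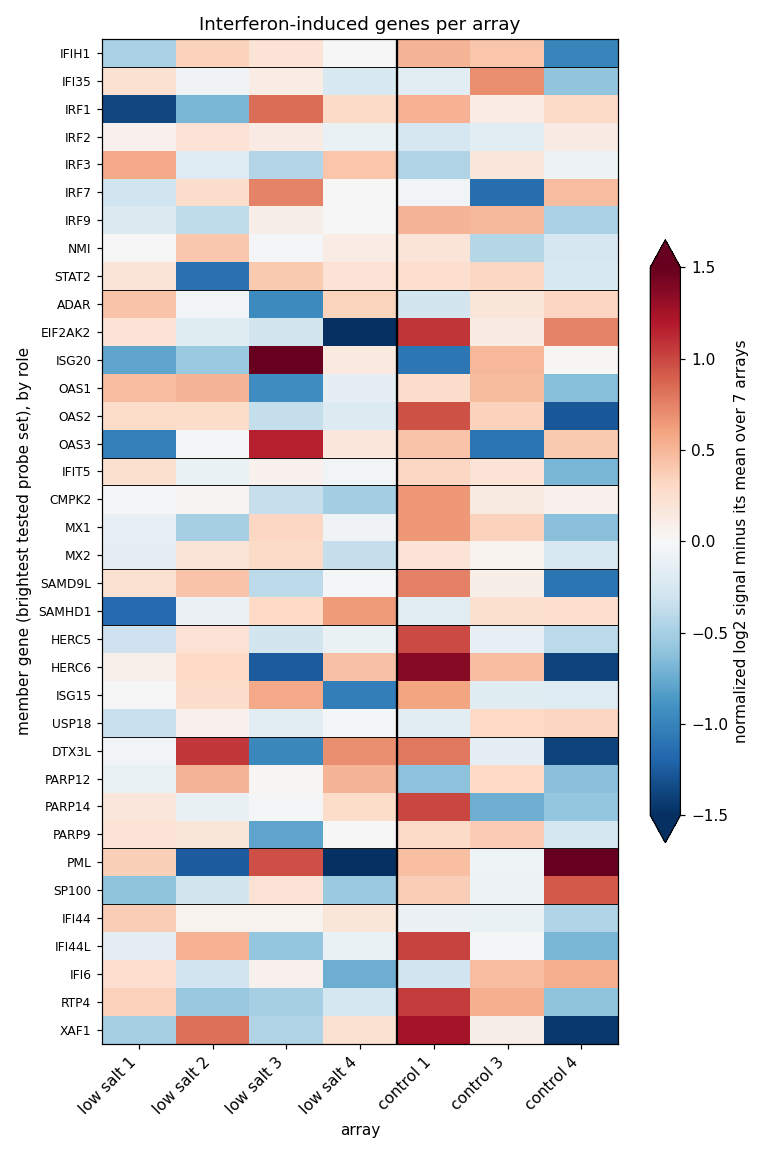
Level of the brightest tested probe set of each of the 36 genes in each of the 7 samples, minus its mean over the samples (log2 units, colour scale), low salt left. Control 1 has mostly high and control 4 mostly low colours among XAF1, HERC6, OAS2, IFI44L and SAMD9L.

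**Figure D4:**
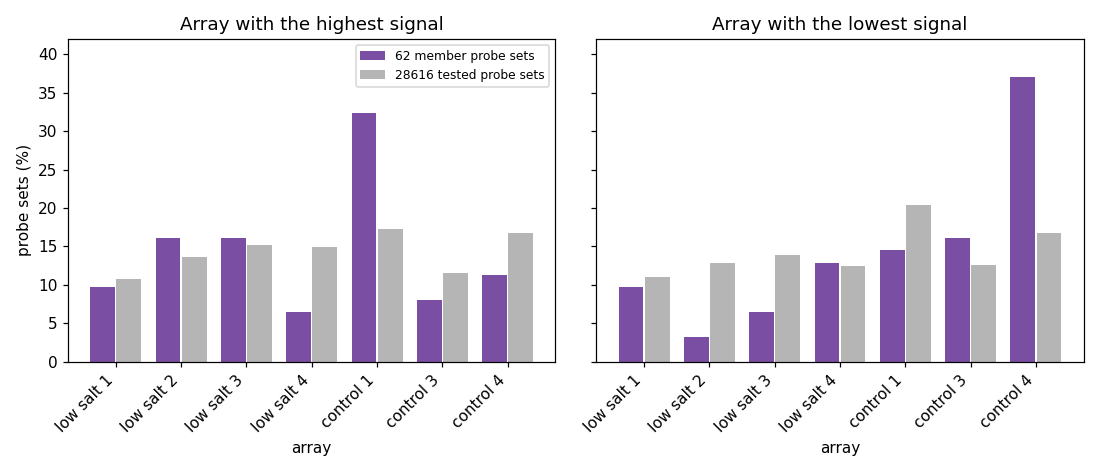
Percent of the 62 member probe sets, and of all tested probe sets, that had their highest or lowest level in each sample. Control 1 holds 32.3% of the members' highest levels against 17.3% of all, and control 4 37.1% of their lowest against 16.7%.

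Other genes of the pathway, 86 in 5 lists of which 53 were named on the array and 40 tested, also had none past the adjusted test. Their 71 tested probe sets had a median of 0.12, against 0.04 for all tested probe sets. At an unadjusted p under 0.05, 6 were higher and 6 lower in low salt samples (smallest limma adjusted p 0.301). Of all tested probe sets, 5.27% were higher and 5.78% lower at that p. Of the interferon genes, IFNL1 differed by 0.66 ± 0.39 and IFNG by 0.35 ± 0.35, and IFNB1 and IFNK were too dim to be tested. Among receptors, an IFNGR2 probe set was higher by 0.55 ± 0.24 (limma adjusted p of 0.414), and IFNGR2's other tested probe sets differed by 0.08 and 0.33. The 3 tested IL10RB probe sets differed by -0.57 ± 0.43, -0.15 ± 0.25 and 0.42 ± 0.49.

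Signalling genes and inhibitors had 14 tested probe sets with a median of -0.08. PIAS1, a SUMO ligase, differed by -1.36 ± 0.45 on 1 probe set (limma adjusted p of 0.306) and by 0.23 on another. JAK2, a receptor kinase, differed by 0.80 ± 0.31 on 1 probe set (limma adjusted p of 0.373) and by -0.07 on a brighter one. Upstream of interferon, TLR4, the receptor for bacterial lipopolysaccharide, had probe sets at 1.15, 0.72 and -0.97, with limma adjusted p from 0.349 to 0.38. STING1, which relays DNA sensing, differed by 0.68 ± 0.37. Of 38 probe sets of further interferon-induced genes, 2 were higher and 4 lower at an unadjusted p under 0.05, beside 5.27% and 5.78% of all. TRIM22 differed by -1.29 ± 0.43 (limma adjusted p = 0.301) and a WARS1 probe set by 0.90 ± 0.31 (limma adjusted p = 0.321). WARS1's other tested probe sets differed by 0.66 and 0.10. In that list, control 1 was highest for 6 of 38 (17.3% of all) and control 4 lowest for 16 of 38 (16.7% of all). Only the count of control 4 was above its share of all.

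Markers of cells that carry interferon responses were measured beside these genes. Summed pan-leukocyte marker signal (6 of 6 genes named) was 611.4 to 853.1 units in low salt samples and 511.5 to 785.4 units in control samples. T and NK cell markers (11 of 11) summed to 300.4 to 697.4 units in low salt samples and 415.1 to 1194 units in control samples. Macrophage and monocyte markers (12 of 12) summed to 5227 to 6138 units in low salt samples and 3870 to 6175 in control samples. At an unadjusted p under 0.05, 4 of their 20 tested probe sets were higher and 0 lower in low salt samples. Of all tested probe sets, 5.27% were higher and 5.78% lower at that p. For pan-leukocyte markers 1 of 12 was higher, and for T and NK cell markers 1 of 13 was lower. The latter was a CD4 probe set, at -1.95 ± 0.46 (limma adjusted p of 0.121), and another CD4 probe set differed by 0.06. B cell and plasma cell markers (6 of 8, with 3 tested) were the only list among the first 4 whose sums did not overlap. They were 1115 to 1969 units in low salt samples and 1995 to 2225 units in control samples. That sum rested mostly on 1 JCHAIN probe set, with mean levels of 10.28 in low salt and 10.74 in control samples. Its difference was -0.45 ± 0.18 (limma adjusted p of 0.394), with an unadjusted p under 0.05. CD22 probe sets differed by 0.25 and 0.06, and PAX5 ones by -0.34, -0.48 and 0.39. Endothelial markers (8 of 8) summed to 6599 to 8518 units in low salt samples and 7411 to 8858 units in control samples. No tested probe set of these 5 lists had an adjusted p under 0.05, and their part in the levels above was not tested.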

How the data were processed

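Biotin-labelled total RNA of dog left ventricle was hybridised to 1-colour Affymetrix canine arrays, 4 low salt and 3 control samples, grouped by title. The authors deposited linear intensity values from GCOS, per the submitters' processing notes; the sources used here name no version, probe summary or annotation. Per the design text, the authors used a t-test with variance stabilization. From the deposited intensity, log2(value + 16) was quantile normalized, because medians differed by over 0.25. The 111 control probe sets and the dimmest 33.3% of the other 42924 were left out. The remaining 28616 were tested with limma 3.58.1 (trend) in R 4.3.3, Benjamini-Hochberg adjusted; the script was tested on simulated data. The number of arrays limits precision. Names come from the annotation of the array platform: 29254 have 1 symbol, 439 several and 13231 none. Of the 40 member genes, 35 matched the RefSeq table of UU_Cfam_GSD_1.0, used for names only. The members, lists and tests were chosen with earlier results of these data known. Values per sample are given for the 2 probe sets of smallest p of each role, all at an unadjusted p under 0.05, fixed marker genes, and some added after values were seen. Same-numbered samples' deviations correlated at -0.264 to 0.074. The labels do not state whether numbers pair samples, and these few correlations cannot settle it. Alternatives covered offset, scaling, filter, array weights, replicate block, t-test and left-out samples.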

Additional observations from a re-analysis of the deposited data

Results flagged for a closer look

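The brightest STAT2 probe set had one low salt sample apart from the others. Low salt 2 was at 4.54, and the other low salt samples were at 5.86, 6.05 and 5.88, a gap of 0.88 of the group's range. About 1 in 20 groups of this size would show such a gap by chance. STAT2's difference between diets was -0.19 ± 0.40 with that sample and 0.16 without it, so its direction rested on that sample.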

How the results depend on the processing

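No member passed an adjusted p under 0.05 under any alternative run. At an unadjusted p under 0.05 the count of 4 became 8 on the deposited scale (13.6% of all probe sets). It was 2 by the pooled-variance t-test (10.0%) and 2 to 9 leaving out 1 sample (7.96% to 13.6%). Leaving out both control 4 and low salt 3, chosen after seeing the data, gave 11 of 62 (15.1% of all). Their deviations from their group means correlated at 0.434, the highest of any low salt and control pair. They also had the highest array medians as deposited, 51.3 units for control 4 and 44.2 for low salt 3. The design text's threshold took 2 members (4.4% of all), against 0 with an offset of 64 (0.751% of all) and 0 by the t-test (3.04%). It took 5 without those 2 samples (8.05% of all) and 1 to 4 leaving out 1 sample (3.95% to 7.31%). Groups without overlap numbered 4, against 20 of 62 without those 2 samples (32.2% of all) and 5 to 18 leaving out 1 sample (14.4% to 22.7%). The replicate block fit used only samples whose number occurs in both groups, so low salt 2 was left out of it. Its count of groups without overlap was 7 (14.2% of all), and leaving out low salt 2 alone also gave 7 (14.4% of all). None of the shared replicate numbers correlated best with its own number, which cannot settle whether numbers pair the samples. With medians set equal, groups without overlap numbered 6 of 62 (10.2% of all), 5 higher and 1 lower. The block fit had 3 at an unadjusted p under 0.05 (6.18% of all). The median over probe sets was -0.31 as deposited (all probe sets -0.18), 0.13 with medians set equal (all probe sets 0.26), -0.19 without those 2 samples and -0.19 to 0.10 leaving out 1 sample; over genes it was -0.40 as deposited and -0.26 to 0.06 leaving out 1 sample. Directions turned for 12 of 24 named probe sets, with causes not tested. IFIH1 was -0.01 with offset 64, -0.33 as deposited, -0.16 with array weights, -0.07 with the replicate block, -0.52 without those 2 samples and -0.45 to 0.30 leaving out 1 sample. With medians set equal IRF9 was 0.12 and OAS1 0.07. STAT2 was 0.16 in the replicate block fit, which leaves out low salt 2, and 0.16 without low salt 2 alone. As deposited, the second brightest OAS1 probe set was -0.04, IFIT5 -0.21 and SAMD9L -0.05, and without those 2 samples IFIT5 was -0.21 and SAMD9L -0.22. Leaving out 1 sample, STAT2 ran from -0.35 to 0.16, OAS1 -0.41 to 0.25, IFIT5 -0.21 to 0.27, MX1 -0.63 to 0.04, SAMD9L -0.37 to 0.58, SAMHD1 -0.44 to 0.18, HERC5 -0.58 to 0.14, ISG15 -0.33 to 0.20, RTP4 -1.07 to -0.20, IRF1 -0.89 to -0.17 and DTX3L -0.13 to 0.97.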
